A study of Homo sapiens with 5 samples.

Results

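The genes of the translation initiation and elongation factors were followed in KMH2 cells, an established Hodgkin lymphoma line, on 3 arrays of cells kept with DMSO and 2 arrays of cells kept with 30 uM LY294002, each for 16 hours. They were chosen by name alone: genes whose symbol is EIF or EEF followed by a digit, without EIF2AK2, together with PABPC1, GSPT1, ETF1 and TPT1. This gave 44 of the 7713 genes measured, each represented by its brightest probe set. A further 5 probe sets carry several gene symbols and were left out, namely those of EIF3C, EIF4A1, EIF4A2, EEF1B2 and PABPC4. The values of EIF1AY, which lies on the Y chromosome, are not given, although the gene is part of every count.

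Both groups are the same line in the same medium and serum, so LY294002 against DMSO is the only labelled difference, and 1 line stands for the disease. LY294002 blocks phosphoinositide 3-kinase and is also known to bind mTOR. The series design foresaw triplicates in both groups and left out 1 array for high background. The labels do not state whether replicates were separate cultures. The spread behind each p-value is that of these arrays and may be technical.

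Translation starts when eIF2 brings the initiator tRNA to the small ribosomal subunit, helped by eIF1 and eIF3, while eIF4F binds the capped end of the mRNA through eIF4E. The 4E-BP proteins hold eIF4E away from eIF4G until mTOR phosphorylates them. After the start codon is found, eIF5 and eIF5B release eIF2 and join the large subunit, eEF1 and eEF2 carry elongation, and the release factors end it. mTOR also controls the use of TOP mRNAs, which begin with a C and a run of pyrimidines and encode ribosomal proteins and several of these factors. The arrays measure mRNA levels only, neither protein, phosphorylation nor translation.

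The arrays had medians of 6.26 to 6.29 (log2). Their upper quartiles were 7.59 to 7.62, except for LY294002 replicate 1 with 7.69. Of 8 markers measured for Hodgkin and Reed-Sternberg cells, 7 were brighter than the median gene, among them the CD30 gene TNFRSF8 at 7.39 to 8.49. Brighter than the median gene were also 1 of 3 B cell markers, 5 of 6 T and NK cell markers, 0 of 4 myeloid and 1 of 3 stromal markers. The B cell marker was MS4A1 (CD20), at 10.57, 10.43 and 10.24 with DMSO and at 9.59 and 9.25 with LY294002 (-1.0 ± 0.15, limma adjusted p = 0.073), while CD79A and CD79B differed by 0.06 and 0.01. Its part in the translation factor values was not tested. Of the translation factors, 40 of 44 were brighter than the median gene and 36 were among the brightest 25%.

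The arrays were set up to find genes whose mRNA changes with the inhibitor. None of the 44 translation factor genes passed: limma's adjusted p was under 0.05 for 0 of them, against 0.908% of all genes (0.609% higher and 0.298% lower). At an unadjusted p under 0.05, 10 of the 44 were higher and 1 was lower, which is 22.7% and 2.27%, against 10.6% and 6.5% of all genes. Among the 1929 genes of the brightest 25%, 407 were higher (21.1%) and 232 lower at that p. The factors' share of higher genes was thus close to that of bright genes, and their share of lower genes was smaller. The 2 groups did not overlap in 18 of the 44 genes. LY294002 was on top in 16 of the 44 (36.4%) and below in 2 (4.55%), EIF3I and EIF1AY, against 16.2% and 13.4% of all genes. The brightest 25% of genes, where most of these factors lie, held 30.3% and 18.4%.

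Log2 differences of LY294002 minus DMSO ran from -0.16 for EIF2S2 to 0.52 for EIF5. Their median was 0.13, with 31 of 44 above 0, beside -0.01 over all genes, of which 44.5% were above 0, and 0.04 over the brightest 25%, of which 57.5% were. Relative to the mean of the DMSO arrays, the median factor stood at 0.01, 0.00 and -0.02 on DMSO replicates 1, 2 and 3, at 0.17 on LY294002 replicate 1 and at 0.06 on LY294002 replicate 2. Both LY294002 arrays were thus above the 3 DMSO arrays, replicate 1 by more. The brightest 25% of genes stood at 0.06 and 0.01 on these 2 arrays, and its part in the shift was not tested. The median without LY294002 replicate 1 was 0.06, without DMSO replicate 3 it was 0.08, and after quantile normalization it was 0.10, with 26 of 44 above 0 (59.1%) and the brightest 25% at -0.02.

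**Figure D1:**
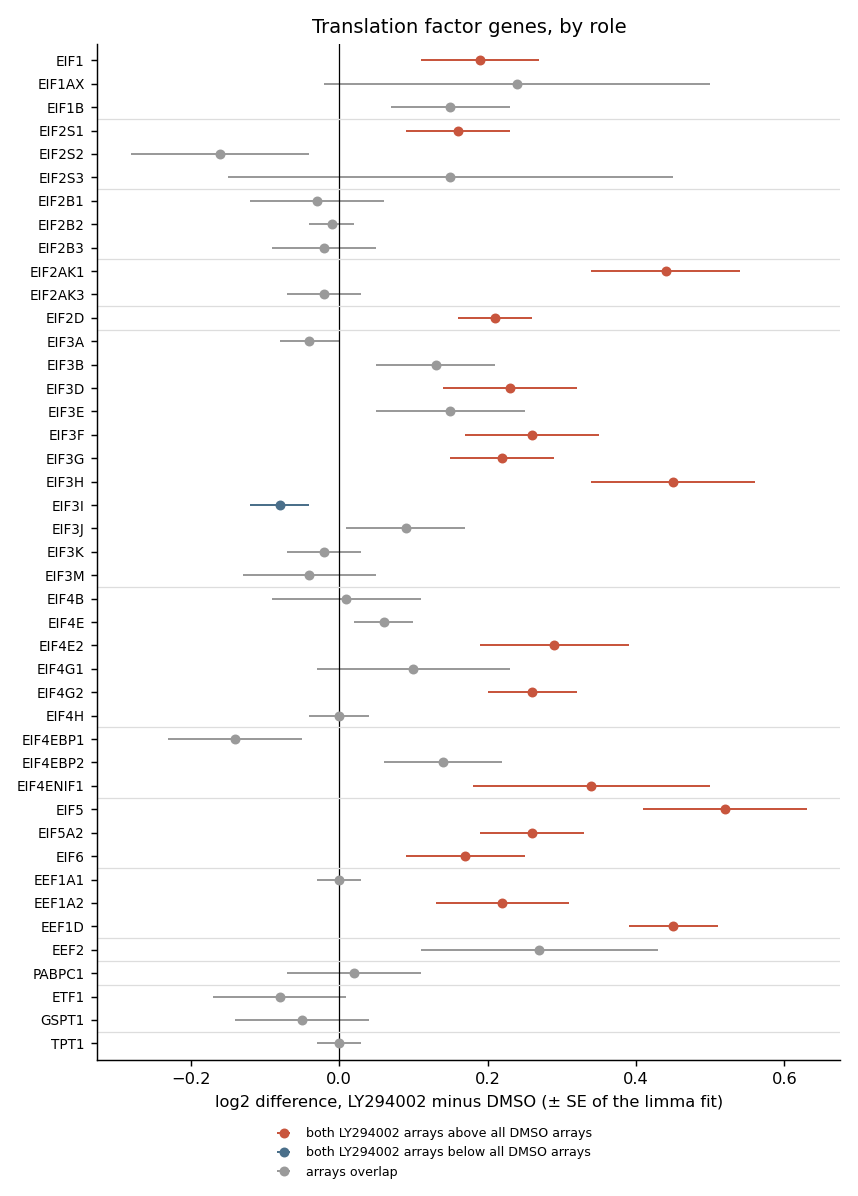
Log2 difference of LY294002 minus DMSO for 43 translation factor genes, grouped by role from top to bottom with grey lines between the groups; points are the differences and bars the standard errors of the limma fit over 3 DMSO and 2 LY294002 arrays. The largest difference is that of EIF5 at 0.52, the lowest that of EIF2S2 at -0.16, and no gene passed the adjusted threshold.

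**Figure D2:**
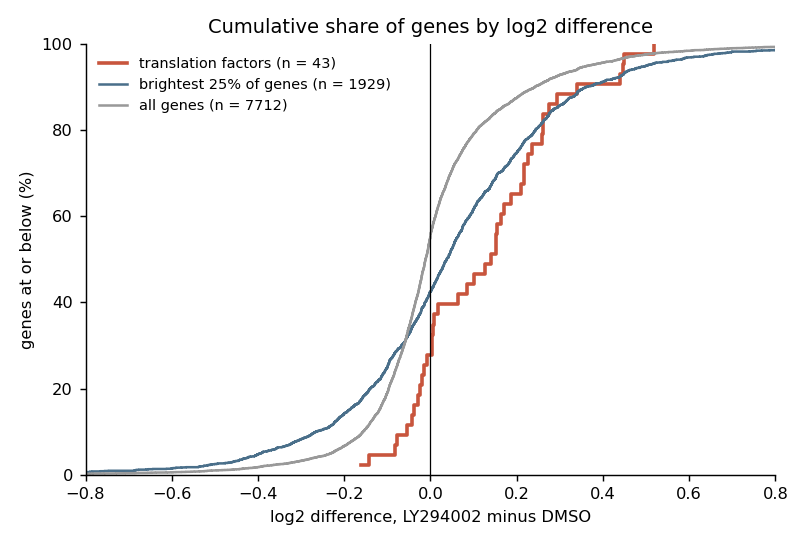
Cumulative percentage of genes at or below each log2 difference of LY294002 minus DMSO, for 43 translation factors, the brightest 25% of genes and all genes; the axis ends at 0.8 on either side and a few genes lie beyond it. The median of all 44 translation factors is 0.13, that of the brightest 25% 0.04 and that of all genes -0.01.

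Among the elongation factors, EEF1D had the lowest adjusted p of all 44 genes. EEF1D, a subunit of the exchange factor that reloads eEF1A with GTP, stood at 9.28, 9.44 and 9.37 on DMSO replicates 1, 2 and 3 and at 9.84 and 9.78 on the LY294002 arrays. The groups were well apart, and both LY294002 arrays were close to each other. The difference was 0.45 ± 0.06 on the log2 scale, or 1.36-fold (limma adjusted p = 0.058). It was under 0.05 after quantile normalization (0.0229), cyclic loess (0.0209) and median centring (0.0496), without dim probe sets (0.0358) and without probe sets with identical values (0.011). Without any 1 array it was again above 0.05, and over all alternatives it ran from 0.011 to 0.394.

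The other elongation factors were less clear. EEF1A2, the tissue-restricted form of the factor that delivers aminoacyl-tRNA, stood at 10.69, 10.85 and 10.87 with DMSO and at 11.13 and 10.90 with LY294002. The second LY294002 array was just above the highest DMSO array (0.22 ± 0.09, limma adjusted p = 0.362). EEF1A1, the common form, lay between 13.62 and 13.69 on all 5 arrays, with a difference of 0.00 ± 0.03. The brightest value in the whole table was 13.72, so this probe set sits at the top of the scale, and it is of a kind that can bind near-identical transcripts. EEF2, the translocation factor, was at 11.98, 11.57 and 11.57 with DMSO and at 12.08 and 11.88 with LY294002. DMSO replicate 1 lay between the 2 LY294002 arrays, and the difference was 0.27 ± 0.16 (limma adjusted p = 0.438). The second EEF2 probe set gave 11.86, 11.57 and 11.25 against 12.04 and 12.01, a difference of 0.46 ± 0.19 (limma adjusted p = 0.325) without overlap. EEF1B2 carried several symbols on its probe set, and EEF1G and EEF2K are not analysed here.

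EIF5, EIF6 and EIF5A2, grouped here by name although their roles differ, each had both LY294002 arrays above all DMSO arrays. EIF5, which makes eIF2 hydrolyse its GTP at the start codon, stood at 7.93, 7.94 and 7.80 with DMSO and at 8.56 and 8.26 with LY294002. The LY294002 arrays differed from each other by more than the DMSO arrays did, yet both lay above them. The difference was 0.52 ± 0.11, or 1.43-fold (limma adjusted p = 0.117, and 0.0199 to 0.436 over the alternatives), and it passed after quantile normalization (0.0355) and without probe sets with identical values (0.0199). EIF6, which keeps the ribosomal subunits apart, was at 8.36, 8.55 and 8.56 against 8.69 and 8.63 (0.17 ± 0.08, limma adjusted p = 0.376). EIF5A2, a form of the hypusine-bearing factor eIF5A, was among the dimmest 25% of genes, at 5.06 to 5.21 with DMSO and at 5.33 and 5.48 with LY294002 (0.26 ± 0.07, limma adjusted p = 0.184).

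**Figure D3:**
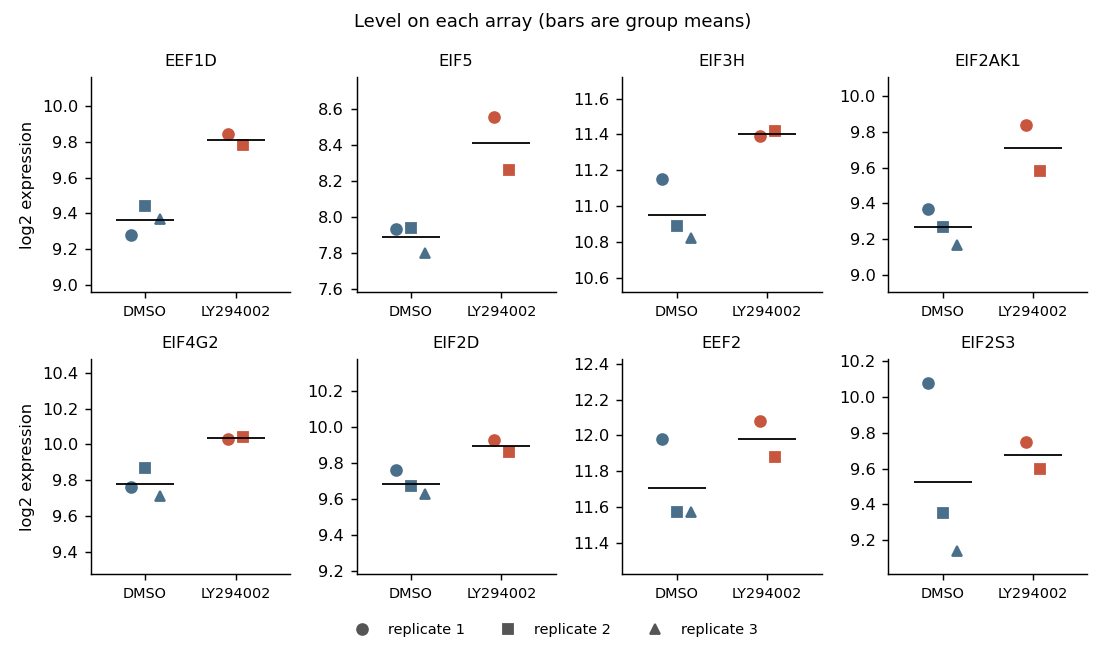
Log2 expression of 8 translation factor genes on each array, DMSO in blue and LY294002 in red, with marker shapes for the replicate number and black bars for group means; every panel spans the same range of 1.2 log2 units. For EEF1D, EIF5, EIF3H, EIF2AK1, EIF4G2 and EIF2D both LY294002 arrays lie above all DMSO arrays, whereas DMSO replicate 1 overlaps them for EEF2 and exceeds them for EIF2S3.

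The eIF3 complex, the scaffold of the initiation complex on the small subunit, had 11 subunits measured. Their median difference was 0.13, with 7 above 0 and 4 below, and 4 had both LY294002 arrays above all DMSO arrays, against 1 with both below. EIF3H had the largest difference, from 11.15, 10.89 and 10.82 with DMSO to 11.39 and 11.42 with LY294002. The LY294002 arrays were nearly equal and above the DMSO arrays, by 0.45 ± 0.11 or 1.37-fold (limma adjusted p = 0.157, and 0.0347 without probe sets with identical values). EIF3F stood at 10.40, 10.15 and 10.28 against 10.47 and 10.61 (0.26 ± 0.09, limma adjusted p = 0.272), and EIF3G at 8.59, 8.49 and 8.41 against 8.78 and 8.65 (0.22 ± 0.07, 0.243). EIF3D, the subunit that can bind the cap of some mRNAs, was at 9.29, 9.53 and 9.53 against 9.69 and 9.66 (0.23 ± 0.09, limma adjusted p = 0.307). In all 4 the groups did not overlap.

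Other subunits lay near 0 or below it. EIF3I, which sits in the module with EIF3B and EIF3G, was the subunit with both LY294002 arrays lowest, at 9.83 and 9.78 against 9.86, 9.89 and 9.93 (-0.08 ± 0.04, limma adjusted p = 0.376). EIF3A, the largest subunit, held the identical value of 7.99 on 4 arrays and 7.91 on LY294002 replicate 2 (-0.04 ± 0.04). EIF3E was at 10.27, 10.07 and 9.98 against 10.33 and 10.20 (0.15 ± 0.10, limma adjusted p = 0.466), so that DMSO replicate 1 fell between the LY294002 arrays. EIF3B, EIF3J, EIF3K and EIF3M differed by 0.13, 0.09, -0.02 and -0.04, each with overlapping groups, and the second probe set of EIF3K gave 0.01. Subunits of this 1 complex thus lay on both sides of 0.

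Of the eIF2 subunit genes, EIF2S3 had DMSO arrays that were far apart (SD 0.49, n = 3), EIF2S2 less so (SD 0.18) and EIF2S1 not (SD 0.08). EIF2S1, the alpha subunit that stress kinases phosphorylate, was at 6.90, 7.04 and 7.04 with DMSO and at 7.09 and 7.23 with LY294002 (0.16 ± 0.07, limma adjusted p = 0.354). EIF2S2, the beta subunit, was at 9.53, 9.22 and 9.21 against 9.22 and 9.10 (-0.16 ± 0.12, limma adjusted p = 0.498). EIF2S3, the gamma subunit that holds GTP and the tRNA, was at 10.08, 9.35 and 9.14 against 9.75 and 9.60 (0.15 ± 0.30, limma adjusted p = 0.795). DMSO replicate 1 was the highest of the 5 arrays for the beta and gamma subunits and the lowest for alpha. The stress factor ATF4 showed the same array apart, at 9.73 against 9.06 and 9.02 with DMSO and 9.29 and 9.37 with LY294002, and its part in the eIF2 values was not tested. EIF1AX, which scans for the start codon with eIF1, had DMSO replicate 1 apart in the other direction, at 8.06 against 8.79 and 8.65, beside 8.92 and 8.55 with LY294002 (0.24 ± 0.26).

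The 3 subunits measured of eIF2B, which recharges eIF2 with GTP, lay near 0: EIF2B1, EIF2B2 and EIF2B3 differed by -0.03, -0.01 and -0.02, with standard errors of 0.09, 0.03 and 0.07. EIF2B2 and EIF2B3 held identical values within a group, which lower the spread. Of the eIF2 kinases, EIF2AK1, the haem-regulated kinase, stood at 9.37, 9.27 and 9.17 with DMSO and at 9.84 and 9.58 with LY294002. Both LY294002 arrays were above the DMSO arrays, by 0.44 ± 0.10 or 1.36-fold (limma adjusted p = 0.141, and 0.0307 without probe sets with identical values). EIF2AK3, the kinase PERK of the endoplasmic reticulum, was at 5.62 to 5.71 with DMSO and at 5.71 and 5.59 with LY294002 (-0.02 ± 0.05). EIF2D, a factor that can deliver tRNA without eIF2, was at 9.76, 9.67 and 9.63 against 9.93 and 9.86 (0.21 ± 0.05, limma adjusted p = 0.158), without overlap. EIF1, which guards start codon choice, was at 11.83, 11.64 and 11.65 against 11.84 and 11.95 (0.19 ± 0.08, limma adjusted p = 0.34), with LY294002 replicate 1 barely above DMSO replicate 1. Its close relative EIF1B differed by 0.15 ± 0.08, with LY294002 replicate 2 level with DMSO replicate 1 at 7.89.

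The cap-binding side held 6 genes of the eIF4 kind, with a median difference of 0.08. EIF4E, the cap-binding protein, was dim on every array, at 4.26 to 4.30 with DMSO and at 4.40 and 4.30 with LY294002, at percentile 4.78 of all genes, so that this probe set can show little of a change. EIF4E2, a cap-binding relative that represses translation, was at 6.76, 6.84 and 6.91 against 7.27 and 6.99 (0.29 ± 0.10, limma adjusted p = 0.265). EIF4G1, the scaffold of eIF4F, was at 7.78, 7.78 and 7.57 against 7.97 and 7.65 (0.10 ± 0.13), with LY294002 replicate 2 among the DMSO arrays. EIF4G2, a relative that lacks the eIF4E site and serves cap-independent starts, was at 9.76, 9.87 and 9.71 against 10.03 and 10.04 (0.26 ± 0.06, limma adjusted p = 0.13). Its LY294002 arrays were 0.01 apart and above all DMSO arrays. EIF4B and EIF4H, partners of the helicase, differed by 0.01 ± 0.10 and 0.00 ± 0.04.

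The 2 genes of 4E-BP proteins measured had differences of opposite sign, and neither passed. EIF4EBP1, the best known mTOR substrate of the family, was at 8.42, 8.40 and 8.41 with DMSO, and at 8.40 and 8.14 with LY294002. The low value was that of LY294002 replicate 2 alone, and the difference of -0.14 ± 0.09 (limma adjusted p = 0.444) was -0.01 without that array. EIF4EBP2 was at 7.55, 7.77 and 7.72 against 7.87 and 7.77 (0.14 ± 0.08, limma adjusted p = 0.441). EIF4ENIF1, which carries eIF4E into the nucleus and to processing bodies, was at 6.33, 6.59 and 6.58 against 7.06 and 6.62. The 0.34 ± 0.16 difference (limma adjusted p = 0.391) rested on LY294002 replicate 1 and was 0.12 without it.

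The poly(A)-binding protein gene PABPC1 lay between 11.93 and 12.17 on all 5 arrays (0.02 ± 0.09), on a probe set of a kind that can bind near-identical transcripts. Of the release factors, ETF1, which reads the stop codon, differed by -0.08 ± 0.09 and GSPT1, its GTPase partner, by -0.05 ± 0.09. In both, LY294002 replicate 2 was lower than LY294002 replicate 1. TPT1, the translationally controlled tumour protein, stayed at 12.39 to 12.40 on every array (0.00 ± 0.03). Its probe set held identical values within a group, which lower the spread, at percentile 99.7 of all genes.

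**Figure D4:**
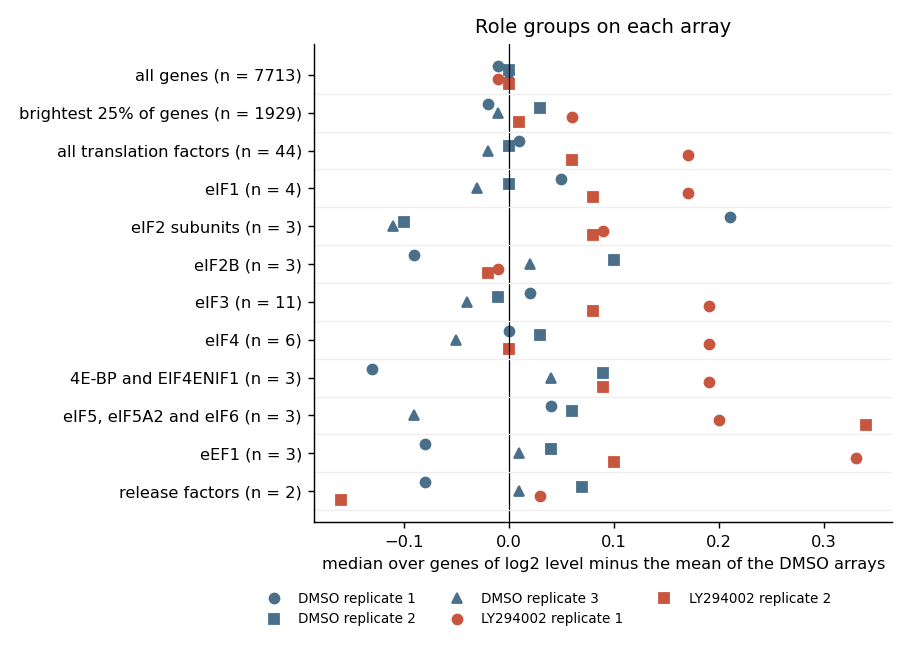
Median over the genes of each role group of the log2 level minus the mean of the DMSO arrays, with 1 point per array, DMSO in blue and LY294002 in red. The eIF5 group stands at 0.20 and 0.34 on the LY294002 arrays and eIF3 at 0.19 and 0.08, while eIF2B lies at -0.01 and -0.02.

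Role groups thus had median differences of 0.26 for eIF5, EIF5A2 and eIF6, 0.22 for eEF1, 0.17 for eIF1, 0.15 for the eIF2 subunits, 0.14 for the 4E-BP genes with EIF4ENIF1, 0.13 for eIF3, 0.08 for eIF4, -0.02 for eIF2B and -0.07 for the release factors. They hold 2 to 11 genes each, and differences between them were not tested. For eIF4 the median on the LY294002 arrays was 0.19 and 0.00, and for eEF1 0.33 and 0.10, so these groups were higher on LY294002 replicate 1. For eIF5 and its relatives it was 0.20 and 0.34. For the eIF2 subunits DMSO replicate 1 stood at 0.21, above both LY294002 arrays at 0.09 and 0.08, and without DMSO replicate 3 the median was -0.04.

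TOP mRNAs were looked at through a list of known members and through the start sites themselves. Promoter windows from RefSeq (GRCh38.p14), 250 bases before to 50 after a gene's start, were held for 34 of the 44 genes. A start was taken to have a pyrimidine tract where its first base was C and at least 4 further bases were C or T without a break, on the transcribed strand. Such a tract was found in 10 of the 34 (29.4%), in 6.96% of the 6209 measured genes with a window and in 4.07% of all 35116 windows. The 10 starts are shown because they match the form of the element by which mTOR is known to act on TOP mRNAs. Of these genes, 5 are on the list of known members, and control of the others by mTOR was not tested. Each line runs from 10 bases before to 20 bases from the annotated start, with the tract in capitals.
EEF1A1 (chr6:73521013-73521042, minus strand): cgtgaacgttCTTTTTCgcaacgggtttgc
EEF2 (chr19:3985444-3985473, minus strand): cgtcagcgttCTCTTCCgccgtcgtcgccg
TPT1 (chr13:45341164-45341193, minus strand): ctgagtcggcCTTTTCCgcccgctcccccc
EIF4B (chr12:53006446-53006475, plus strand): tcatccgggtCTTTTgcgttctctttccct
EIF3F (chr11:7987327-7987356, plus strand): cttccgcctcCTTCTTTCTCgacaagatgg
EIF3D (chr22:36529147-36529176, minus strand): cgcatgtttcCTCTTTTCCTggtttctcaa
EIF3K (chr19:38619178-38619207, plus strand): tttccaccacCTCTTCCTgttcccgtcctt
EIF3M (chr11:32583821-32583850, plus strand): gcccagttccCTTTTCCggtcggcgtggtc
EIF2S3 (chrX:24054946-24054975, plus strand): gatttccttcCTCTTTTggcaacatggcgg
EIF2D (chr1:206612446-206612475, minus strand): ccagccgggcCCTTTTCgcggccgggcccc
EIF5, picked because its difference was the largest, has no such tract at either annotated start. EEF1D, EIF3H and EIF2AK1, next in size of difference, have no window here.
EIF5, upstream start (chr14:103334227-103334256, plus strand): ggcgttgttcagtcagagcgagaacattcc
EIF5, downstream start (chr14:103334878-103334907, plus strand): ggcacccctcggccgtgtgtcgcttcccgg

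Genes with and without the tract had close medians. The 10 genes with it had a median of 0.08 (from -0.04 for EIF3M to 0.27 for EEF2), with 8 above 0 and 3 whose LY294002 arrays lay above all DMSO arrays, EIF2D, EIF3D and EIF3F (30.0%). The 24 genes with a window and no tract had a median of 0.11, with 16 above 0 and 8 whose LY294002 arrays lay above all DMSO arrays (33.3%). Over all measured genes the medians were 0.01 with a tract and -0.01 without, and both LY294002 arrays were highest in 24.8% and 16.6%. Among the brightest 25% of genes this share was 30.3%, and the sets with and without a tract were not matched for brightness. The 12 members of the list of known TOP mRNAs had a median of 0.18 with 11 above 0, and the other 32 factors 0.11 with 20 above 0. Without LY294002 replicate 1 these medians were 0.09 and 0.03. All 5 genes of that list with a window had the tract, and their values range from 0.00 for TPT1 and EEF1A1 to 0.27 for EEF2. An annotated start need not be the start used in these cells, and the difference between the groups was not tested.

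Genes next to the factors in the pathway were counted from lists fixed by name. Of 11 measured genes around mTORC1 and its path to translation, 0 passed, with 9 above 0 and a median of 0.16. They include TSC1, TSC2 and RHEB, which act upstream of mTORC1, so these counts pool brakes with activators. RPS6, the ribosomal protein phosphorylated downstream of mTOR, was at 12.53, 12.39 and 12.39 with DMSO and at 12.57 and 12.71 with LY294002 (0.20 ± 0.07, limma adjusted p = 0.253). TSC2, a brake on mTORC1, was at 7.25, 7.40 and 7.27 against 7.71 and 7.59 (0.35 ± 0.07, limma adjusted p = 0.102). PDCD4 and DDIT4 are not analysed here. MKNK2, a kinase of eIF4E, differed by -0.13 ± 0.15, with LY294002 replicate 2 the lowest of the 5 arrays at 9.83. RPS6 and TSC2 were picked after their values were seen. So were the genes given with values in the next paragraph, other than ATF4, fixed by name, and TUFM, given because it passed the threshold.

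Of 10 measured genes on a list around eIF2 phosphorylation, 0 passed. In 5 of them (50%) both LY294002 arrays were highest and in 3 (30%) both lowest, against 16.2% and 13.4% of all genes. The list pools response genes with the kinase gene EIF2AK2, the phosphatase genes PPP1CA, PPP1CB and PPP1CC, and NCK1. PPP1CA, PPP1CB and NCK1 are among those with both highest, and EIF2AK2 among those with both lowest. These counts thus do not describe the response to phosphorylated eIF2 alone. PPP1R15A, which directs a phosphatase to eIF2 alpha, was at 7.87, 7.91 and 8.04 with DMSO and at 8.29 and 8.49 with LY294002 (0.45 ± 0.08, limma adjusted p = 0.0995). EIF2AK2, the kinase PKR that interferon induces, was at 8.45, 8.52 and 8.43 against 8.23 and 8.16 (-0.27 ± 0.04, limma adjusted p = 0.082). ATF4 differed by 0.06 ± 0.25, and its target ASNS, asparagine synthetase, by -0.51 ± 0.28 (limma adjusted p = 0.438), with DMSO replicate 1 at 8.69 beside 8.02 and 7.82. Other response genes on the list lay on both sides of 0. TRIB3 differed by -0.24 ± 0.09 (limma adjusted p = 0.299) and ATF3 by 0.46 ± 0.16 (limma adjusted p = 0.271). Of 3 measured factors of mitochondrial translation, 1 passed, in the lower direction, where 0.298% of all genes did. TUFM, the mitochondrial elongation factor that corresponds to eEF1A, was at 10.80, 10.78 and 10.76 with DMSO and at 10.46 and 10.47 with LY294002, and fell by 0.32 ± 0.03 on the log2 scale (limma adjusted p = 0.0348). The groups were apart. No cytosolic factor of the 44 passed, but the limma adjusted p of EEF1D was 0.058, and a difference between TUFM and these factors was not tested. The call ended in 9 of 15 alternatives, with a limma adjusted p of 0.0697 to 0.17 without any 1 array and 0.358 with the replicate number as a block, while the difference stayed between -0.36 and -0.31.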

How the data were processed

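The authors deposited probe set values on a log2 scale for 5 arrays, and per the submitters' processing notes these came from affy, an R package. Its version, how background was corrected and how probes were summarised is not given in the sources used here. Deposited values were used unchanged. Control probe sets (47) were left out and 8746 fitted. Gene symbols came from the platform annotation (7840 probe sets with 1 symbol, 388 with several, 518 with none; 7838 found in the RefSeq table, 0 symbols updated). The brightest probe set stood for a gene.

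LY294002 was compared with DMSO by limma 3.58.1 (lmFit, eBayes) in R 4.3.3, two-sided, with group as the only term, 3 residual degrees of freedom and Benjamini-Hochberg adjustment over 8746 probe sets at 0.05. Errors beside differences are standard errors of this fit, over 3 DMSO and 2 LY294002 arrays. Identical values on arrays of 1 group occurred in 3325 probe sets, 10 of them members, and lower the spread. The number of arrays limits the precision. On 10 simulated tables of 8746 probe sets, log2 changes of 0.3, 0.5 and 1 were called by limma in 47%, 85.2% and 98.4% of cases. The simulation takes the moderated spread as the true one.

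Members and lists were chosen with earlier results of these data known. Values in full were set for fixed names and, in each role group, for the highest and lowest differences without overlap; other members are named to account for all. Statmod 1.5.0 was present, and figures used matplotlib 3.10.9 in Python 3.11.15.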

Additional observations from a re-analysis of the deposited data

How the results depend on the processing

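The genes past the threshold numbered 70 in all; they were 299 after quantile normalization, 147 after median centring, 264 after cyclic loess, 203 without dim probe sets (the dimmest 40%), 510 without probe sets with identical values, 17 with array weights, 1 without variance moderation, and 0 to 4 without any 1 array. Of the translation factors 0 passed, and 2 did so after quantile normalization (EIF5 and EEF1D), 1 after median centring, 1 after cyclic loess and 1 without dim probe sets (EEF1D each time), and 4 without identical values (EIF2AK1, EIF3H, EIF5, EEF1D). In the other 10 of 15 alternatives the count was 0. Factors with both LY294002 arrays lowest were 1 without dim probe sets, 6 with cyclic loess and 7 with quantile normalization. They were 2 to 4 without any 1 DMSO array. Those with both highest were 16 to 21 without any 1 DMSO array and 14 to 17 in the other alternatives run. Without LY294002 replicate 1, the remaining LY294002 array was lowest in 8 and highest in 17. Without LY294002 replicate 2 these counts were 2 and 28. A single array lies outside the DMSO range more easily than 2 do. The share of all genes is not given for these settings.

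By the labels, the replicate numbers pair no samples. Deviations from the group mean correlated between same-numbered arrays at 0.0021 (number 1) and -0.21 (number 2). The deviations of 2 LY294002 arrays mirror each other, so these correlations cannot decide whether samples were paired. With the number as a replicate block, 0 genes passed in all and 0 translation factors, with 820 genes at an unadjusted p under 0.05. The block moved the median of all translation factors to 0.08 and of the eIF2 subunits to -0.04, that of the fit without DMSO replicate 3.

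Other medians that moved by more than the spread between arrays were those of the eIF2 kinases (0.44) and the eIF5 group (0.34) without dim probe sets, each then over fewer genes, and of the eIF2 subunits without identical values (0.00). Without any 1 array, medians ran from 0.06 to 0.17 for all factors, 0.08 to 0.17 for eIF1, -0.04 to 0.12 for the eIF2 subunits, 0.08 to 0.19 for eIF3, 0.00 to 0.19 for eIF4, 0.10 to 0.33 for eEF1, 0.09 to 0.20 for the TOP list and 0.03 to 0.15 for the factors outside it.

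Of 397 alternative values for 27 named genes, 23 changed sign, all in genes that no fit called. EIF4B was at -0.03 after quantile normalization, -0.02 after cyclic loess and -0.06 with the block. EEF1A1 was at -0.01, -0.01 and -0.01 there and at 0.00 after median centring, PABPC1 at -0.02, 0.00 and -0.04, and TPT1 at -0.06 and -0.02 in the first 2. Without any 1 array, EIF2AK3 ran from -0.09 to 0.04, EIF3A from -0.08 to 0.00, EIF4B from -0.06 to 0.08, EIF4G1 from -0.06 to 0.26, EEF1A1 from -0.01 to 0.02, PABPC1 from -0.08 to 0.11, ETF1 from -0.21 to 0.06 and GSPT1 from -0.12 to 0.01. For genes beside the factors the same settings were run after seeing the data: ATF4 was at -0.07 with the block and ran from -0.07 to 0.29 without any 1 array, and MKNK2 ran from -0.34 to 0.08. The cause was not tested in any of these.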

Other observations

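Polyamine genes and the enzymes that modify eIF5A were measured beside the factors, since eIF5A carries hypusine made from spermidine. Of 7 such genes 0 passed limma's threshold, with 3 at an unadjusted p under 0.05 in the higher direction (42.9%) and 2 in the lower (28.6%), against 10.6% and 6.5% of all genes. OAZ1, the antizyme that restrains ornithine decarboxylase, stood at 11.72, 11.75 and 11.49 with DMSO and at 12.13 and 12.07 with LY294002 (0.45 ± 0.09, limma adjusted p = 0.117). AZIN1, which opposes the antizyme, was at 8.26, 8.54 and 8.28 against 8.88 and 8.79 (0.47 ± 0.10, limma adjusted p = 0.123). DHPS, which starts the hypusine modification, was at 7.83, 7.80 and 7.71 against 8.04 and 8.17 (0.33 ± 0.06, limma adjusted p = 0.0968).

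The synthases lay the other way. Spermidine synthase SRM was at 9.74, 10.07 and 9.79 with DMSO and at 9.55 and 9.47 with LY294002 (-0.36 ± 0.11, limma adjusted p = 0.232). Spermine synthase SMS was at 9.01, 9.30 and 9.27 against 8.90 and 8.59 (-0.44 ± 0.14, limma adjusted p = 0.222). In each of these 5 genes, named after their values were seen, the groups did not overlap. The others measured, ODC1 and AMD1, differed by 0.08 and -0.14, with overlapping groups.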
